A study of Rattus norvegicus with 16 samples.

Results

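Ankrd1, Ankrd2, Ankrd23 and Csrp3, transcripts of the muscle stretch response, were followed in rat supraspinatus, a muscle of the rotator cuff. They were chosen by name, and all 4 were found among the 17147 genes of the deposited table. The 16 libraries came from Sprague Dawley rats and form 4 groups of 4. The groups are unoperated muscle (0 days, the control group) and muscle taken 10, 30 or 60 days after a full-thickness supraspinatus tear on both sides, each combined with suprascapular neurectomy. Each operated muscle therefore underwent both tear and neurectomy, so tear and nerve loss cannot be told apart, and no sham-operated group was analysed here. The labels give neither the rats' age nor sex, nor whether any libraries came from the same rat, so p-values measure the spread between these libraries. Because the genes were chosen with their differences from 0 days known, their values against 0 days are given as a description, with no test. The genes are tested among the operated times. The same operated libraries entered both the known differences and these tests, so the p-values are not independent of the choice.

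Titin is the giant elastic protein that runs from the Z-disc to the M-band of the sarcomere. Ankrd1, Ankrd2 and Ankrd23 encode the muscle ankyrin repeat proteins, which bind titin in its spring region together with the protease calpain 3 (Capn3) and myopalladin (Mypn), and which are also found in the nucleus. Ankrd1 is abundant in heart and low in resting adult skeletal muscle, and it is a widely used readout of the Hippo pathway's coactivator YAP (Yap1), which acts through TEAD factors. Ankrd2 is more abundant in slow than in fast fibres and is known to rise with passive stretch. Csrp3 encodes muscle LIM protein, which sits at the Z-disc, where it binds alpha-actinin and the titin cap protein telethonin.

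The 12 libraries of the first 3 groups held 22.9 to 39.9 M fragments (M, mega) in all, and the 60-day libraries, the shallowest, 17.2 to 22.4 M. Levels are given as CPM (counts per 1 M fragments, scaled with TMM factors) and take no account of transcript length. Of the 17147 genes, 11658 passed the filter on low counts and were tested, all 4 genes among them. The choice of scaling matters, because the sum of the muscle fibre markers (Acta1, Ckm, Mb, Des, Pygm) changed between groups. It was 127415 to 136652 CPM in unoperated muscle and 34952 to 41841 CPM 10 days after injury. Later it was 61806 to 88541 CPM and, in the last group, 74804 to 101568 CPM. These sums carry the TMM factors, which were 0.750 to 0.775 at 0 days and 1.18 to 1.24 at 10 days. Their size therefore depends on the scaling. Mb alone did not fall with the sum at 10 days. Its medians were 12908, 18301 and 26539 CPM at 0, 10 and 30 days. With library totals in place of TMM factors, the median log2 fold change of all tested genes moved from 0.061 to 0.72 at 10 against 0 days and from 0.033 to -0.13 at 30 against 10 days. The share of called genes that were higher moved from 53.1% to 87.4% and from 48.6% to 27.6% in the same comparisons, and from 47.7% to 28.0% at 60 against 10 days. The heart genes Nppa, Nppb and Myl7 reached at most 0.0892 CPM in any of the 16 libraries, while Myh6 ranged from 3.42 to 156 CPM.

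Ankrd1 encodes cardiac ankyrin repeat protein. At 0 days it stood at 35.2, 41.3, 36.6 and 26.6 CPM in the 4 libraries, a mean of 34.9 ± 6.16 (SD, n = 4). At 10 days it stood at 1262, 2103, 1246 and 1793 CPM (1601 ± 420). At 30 days the libraries read 1844, 937, 963 and 2392 CPM (1534 ± 711). Every library of both groups lay far above all unoperated ones. At 60 days the values were 3624, 748, 545 and 927 CPM (1461 ± 1451), also all above 0 days, but 1 library, named replicate 1 here, lay 4.90 times above the mean of the other 3, which was 740 ± 191 (SD, n = 3). Against 0 days the log2 fold changes at the 3 operated times were, in order, 5.52 ± 0.59 (SE), 5.46 ± 0.58 and 5.38 ± 0.58, which is 45.8-, 43.9- and 41.8-fold. Without the 60-day replicate 1 the last value was 4.40. These libraries are of whole muscle, so more RNA per fibre cannot be told apart from a changed share of cells.

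Ankrd2 moved in the opposite direction early. Its 4 libraries read 133.9, 106.4, 72.8 and 80.4 CPM at 0 days (98.4 ± 27.7, SD, n = 4) and 15.0, 6.18, 4.42 and 6.58 CPM at 10 days (8.05 ± 4.75). At 30 days they read 33.5, 48.9, 35.4 and 61.9 CPM (44.9 ± 13.2), and at 60 days 85.3, 71.4, 40.8 and 50.2 CPM (61.9 ± 20.2). All 10-day libraries lay below every other library, and the 60-day values overlapped those at 0 days. In order of time, the log2 fold changes against 0 days were -3.60 ± 0.37 (SE), -1.13 ± 0.33 and -0.67 ± 0.33. The lowest library rested on 134 fragments, for which the 95% Wilson interval is 4.61 to 6.46 fragments per 1 M of the library total, so counting error was small beside the spread between libraries.

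Ankrd23, which encodes the diabetes-related ankyrin repeat protein, was the most abundant of the ankyrin repeat transcripts in fragments at 0 days, a comparison that transcript length can affect. It stood at 5893, 5283, 4671 and 3966 CPM at 0 days (4953 ± 826, SD, n = 4) and 4021, 5312, 4334 and 3904 CPM at 10 days (4393 ± 639). These groups overlapped. At 30 days the values were 2500, 1858, 1680 and 2489 CPM (2132 ± 425), all below the 0- and 10-day libraries. At 60 days they were 4188, 1654, 1503 and 1573 CPM (2230 ± 1307). Replicate 1 again stood apart, at 2.66 times the mean of the other 3 (1577 ± 75.7, SD, n = 3). The log2 fold changes from unoperated muscle were -0.17 ± 0.28 (SE), -1.22 ± 0.28 and -1.15 ± 0.28 in order of time. The 10-day value turned to 0.48 with library totals.

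Csrp3 was higher at 30 and 60 days. Its libraries read 252, 175, 123 and 173 CPM at 0 days (181 ± 53.3, SD, n = 4) and 244, 217, 158 and 205 CPM at 10 days (206 ± 35.8), with overlapping groups. At 30 days they read 677, 591, 376 and 677 CPM (580 ± 142) and at 60 days 671, 568, 577 and 504 CPM (580 ± 69.2). Every library of the later groups lay above every earlier one. Its log2 fold changes from unoperated muscle were 0.19 ± 0.21 (SE), 1.68 ± 0.21 and 1.68 ± 0.21 in order of time. The 10-day value became 0.84 ± 0.22 with library totals.

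**Figure D1:**
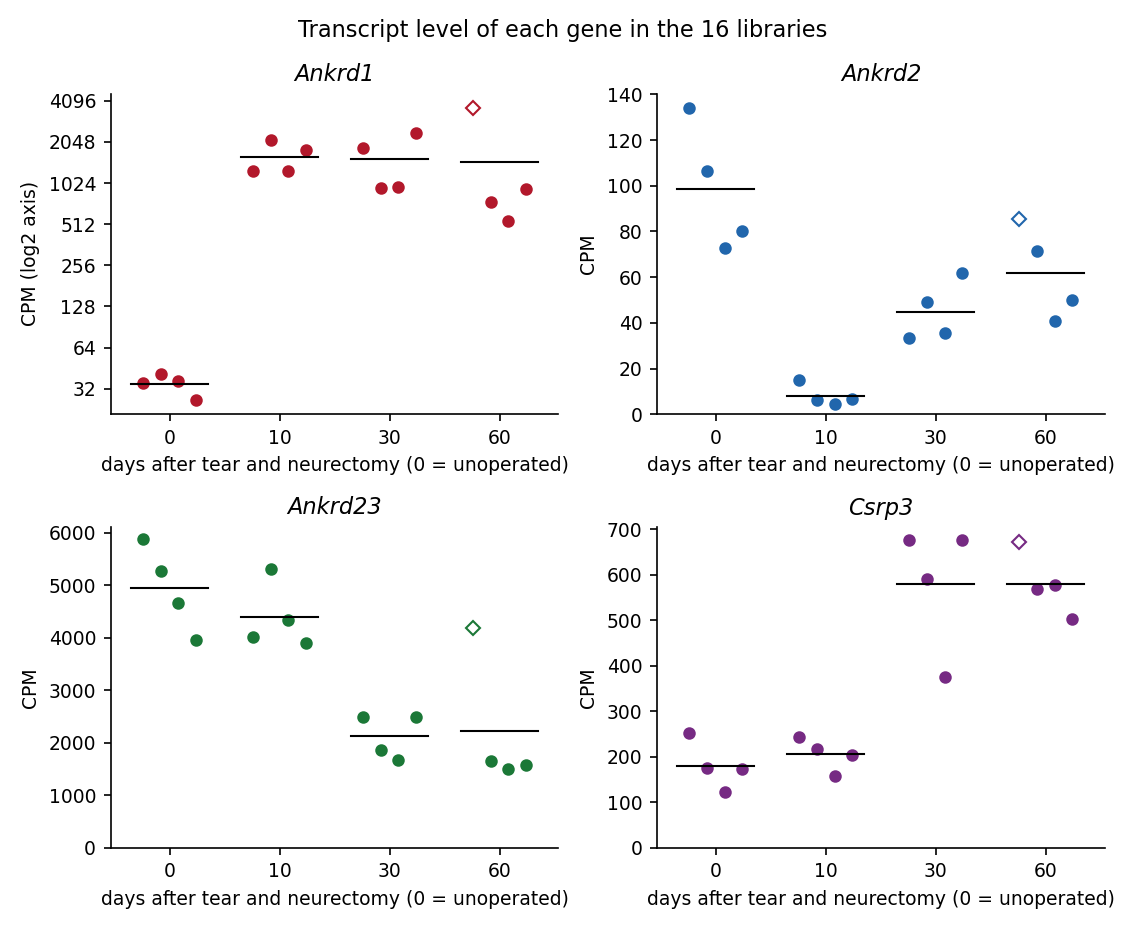
Level of each gene in every library, in CPM, against days after tear and neurectomy (0 is unoperated). Points are libraries, lines are group means, the Ankrd1 axis is log2-spaced and the others are linear from 0. The open diamond is replicate 1 at 60 days, the highest library of its group for all 4 genes.

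Against 0 days, the libraries of the 2 groups did not overlap for Ankrd1 and Ankrd2 at 10 days (2 of 4 genes, where 59.0% of all tested genes did not overlap), for all 4 genes at 30 days (60.2%) and for Ankrd1 and Csrp3 at 60 days (50.0%). The choice of the genes used these comparisons. Spread between libraries differed among the genes. The biological coefficient of variation estimated by edgeR was 0.462 for Ankrd1, above that of 98.7% of tested genes. It was 0.329 for Ankrd2, 0.270 for Ankrd23 and 0.206 for Csrp3, against a common value of 0.150. Each value is pooled over the 4 groups and includes the 60-day replicate 1. Without that library, the SE at 30 against 10 days fell from 0.48 to 0.30 for Ankrd1 and from 0.28 to 0.15 for Ankrd23. That of Ankrd2 was then 0.37. At 0 and 10 days the SD of log2 CPM was 0.27 and 0.38 for Ankrd1, and 0.40 and 0.74 for Ankrd2.

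The comparisons among operated times asked whether the genes kept their 10-day levels as the injury aged. Between 10 and 30 days, Ankrd2 and Csrp3 rose, Ankrd23 fell, and Ankrd1 did not pass the test. Ankrd2 rose by a log2 fold change of 2.47 ± 0.35 (SE, 5.55-fold, edgeR quasi-likelihood adjusted p = 4.40e-05), with all 4 libraries at 30 days above all at 10 days. Csrp3 rose by 1.49 ± 0.21 (2.82-fold, adjusted p = 3.52e-05), likewise without overlap. Ankrd23 changed by -1.04 ± 0.28 (adjusted p = 0.00612), with all 4 later libraries lower. Ankrd1 differed by -0.06 ± 0.48 (adjusted p = 0.927, 95% interval -1.08 to 0.96). So 3 of 4 genes were called, where 47.3% of all tested genes were, and the 3 did not overlap, as 43.8% of genes did not.

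Between 30 and 60 days none of the 4 was called by edgeR, where 22.6% of tested genes were. None had an unadjusted p under 0.05, and DESeq2 and limma-voom called none either. The log2 fold change was 0.46 ± 0.33 (SE) for Ankrd2 (adjusted p = 0.336 by edgeR, 95% interval -0.23 to 1.16) and 0.06 ± 0.28 for Ankrd23 (adjusted p = 0.896, -0.52 to 0.65). For Csrp3 the difference was -0.00011 ± 0.21 (adjusted p = 1.00, -0.44 to 0.44), and for Ankrd1 -0.07 ± 0.48 (adjusted p = 0.937, -1.09 to 0.95).

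At 60 against 10 days, 3 of 4 genes were again called, where 61.1% of tested genes were. These comparisons share the 10-day libraries with those at 30 against 10 days. Ankrd2 stood 2.94 ± 0.36 higher on the log2 scale (7.66-fold, adjusted p = 4.87e-06 by edgeR) and Csrp3 1.49 ± 0.21 higher (2.82-fold, adjusted p = 1.77e-05), both without overlap, as 51.2% of genes were. Ankrd23 changed by -0.98 ± 0.28 (adjusted p = 0.00652), with overlap because replicate 1 at 60 days read 4188 CPM. Ankrd1 differed by -0.13 ± 0.48 (adjusted p = 0.825).

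The 60-day Ankrd1 value rested on 1 library. Without replicate 1, Ankrd1 was lower at 60 days by -1.05 ± 0.33 (SE) on the log2 scale against 30 days (adjusted p = 0.0292 by edgeR) and by -1.11 ± 0.33 against 10 days (adjusted p = 0.00942). No other of the 27 alternative fits called Ankrd1 in either comparison. Ankrd23 without that library changed by -1.48 ± 0.17 at 60 against 10 days (adjusted p = 1.30e-06) and by -0.44 ± 0.16 at 60 against 30 days (adjusted p = 0.0548). That library was the highest of its group for both genes, so leaving it out lowers the 60-day mean by construction. The p-values without it show how far the calls depend on it and do not test a fall.

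**Figure D2:**
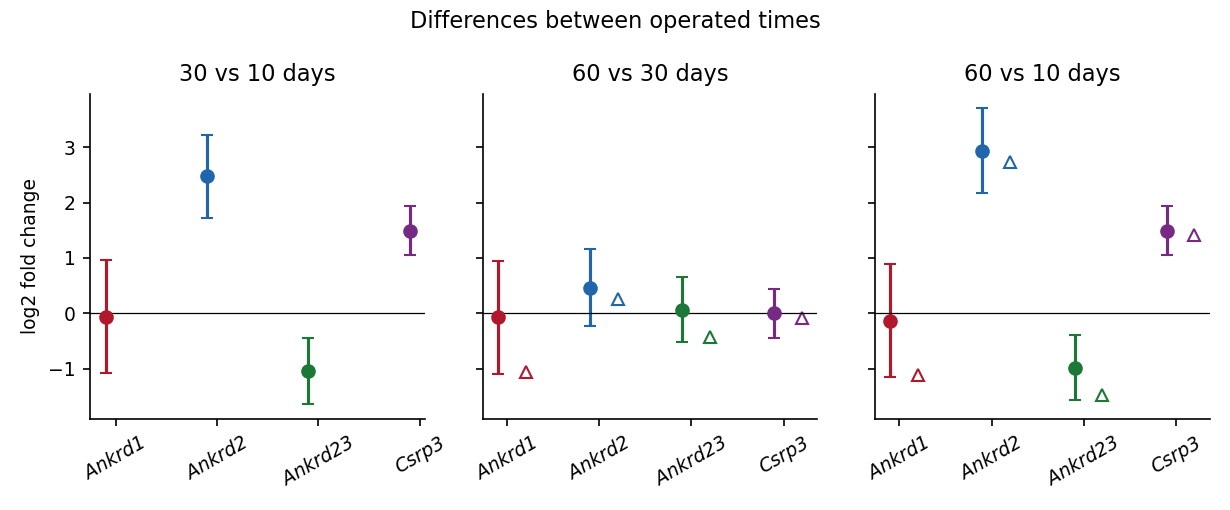
Log2 fold change of the 4 genes between operated times, with 95% intervals from the edgeR fit. Open triangles leave out replicate 1 at 60 days. Ankrd2 and Csrp3 lie above 0 and Ankrd23 below it at 30 and 60 against 10 days, and the triangles for Ankrd1 lie at -1.05 and -1.11.

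Replicate 1 at 60 days differed from the rest of its group in other measures too. Its summed denervation genes, named further down, reached 3029 CPM against 1357 to 1847 in the other 3 libraries. Muscle fibre markers summed to 101568 CPM against 74804 to 84188, and satellite cell markers (Pax7, Myf5, Cdh15, Myod1) to 139 against 67.8 to 95.8. The YAP and TEAD list, described below, summed to 959.7 CPM there against 725.9 to 735.1, and the load response list to 11745 against 7230.0 to 9615. Endothelial markers were lowest there, at 193 CPM against 246 to 299, and so were adipocyte markers, at 203 against 293 to 382. In that library 550 of 11658 genes lay over 2-fold from the mean of the other 3, against 287 to 374 genes for the other libraries. Ankrd1 ranked 7th and Ankrd23 78th among all tested genes by this excess. The part of these measures in the Ankrd1 and Ankrd23 values was not tested.

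Ratios within a library need no scaling between libraries. They are ratios of fragments, so their size depends on transcript length and only their change is read. The mean log2 ratio of Ankrd2 to Ankrd1 was 1.47 in unoperated muscle and -7.76, -5.02 and -4.18 at the operated times in order. That of Ankrd23 to Ankrd1 was 7.15, 1.48, 0.57 and 0.90, and that of Csrp3 to Ankrd1 was 2.34, -2.94, -1.32 and -0.91. From 10 to 30 days these ratios changed by 2.74, -0.91 and 1.62, in each case without overlap. Each had an exact permutation p of 0.0286 (two-sided), the smallest that 4 against 4 libraries allow, and 0.0643 after adjustment over 9 tests. At 60 against 10 days the changes were 3.57 (exact permutation p = 0.0286, adjusted 0.0643), -0.59 (p = 0.143, adjusted 0.214) and 2.03 (p = 0.0571, adjusted 0.103). None of the 9 tests passed 0.05 after adjustment.

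**Figure D3:**
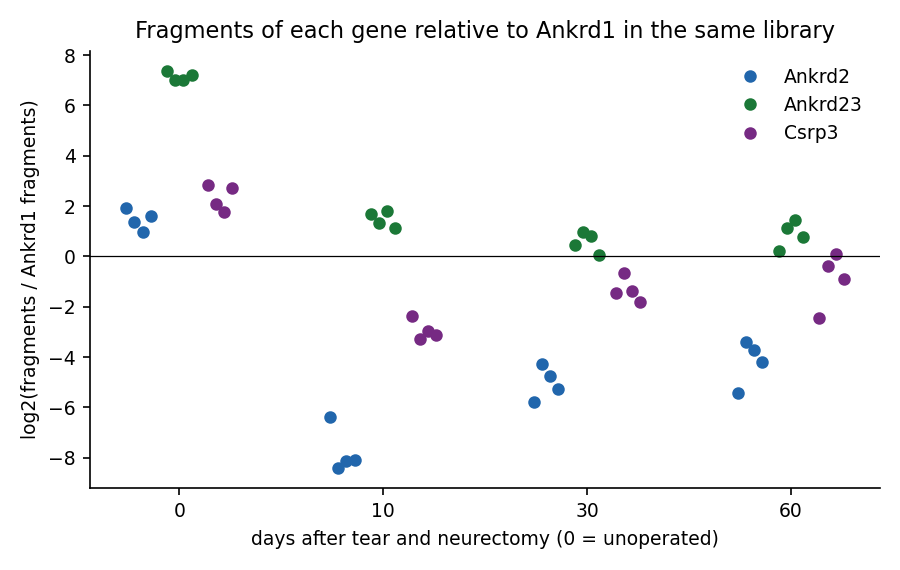
Log2 ratio of fragments of Ankrd2, Ankrd23 and Csrp3 to Ankrd1 in each library, by days after injury. All 3 ratios are highest at 0 days; Ankrd2 and Csrp3 are lowest at 10 days and Ankrd23 at 30 days.

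Libraries of the same group also differed together in some of these genes. Over the 16 libraries, deviations from the group mean of log2 CPM correlated with Pearson r = 0.919 for Ankrd1 and Ankrd23, and with 0.789 over the 12 libraries without the 60-day group. For Ankrd2 and Csrp3 r was 0.637 (0.654 without 60 days). Ankrd1 went less closely with Ankrd2 (0.338, and 0.087 without 60 days) and with Csrp3 (0.372 and 0.407). Genes of a library share its depth and scaling, so these values are descriptions.

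**Figure D4:**
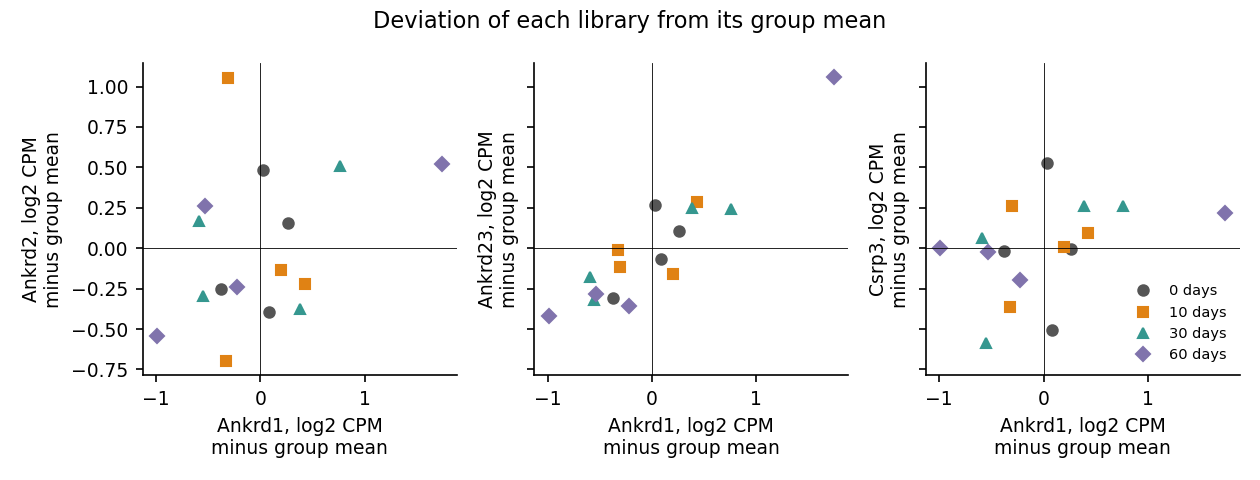
Deviation of each library from its group mean in log2 CPM, Ankrd1 on the x axis against Ankrd2, Ankrd23 and Csrp3 on the y axes. The panel with Ankrd23 holds the closest relation (r = 0.919), and its farthest point is replicate 1 at 60 days.

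RefSeq's promoter table for the rat assembly GRCr8 held 2 of the 4 genes. They are Ankrd2 and Ankrd23, whose promoters are shown. Any relation of these sequences to the levels of the genes was not tested. Each is the 250 bases before the annotated start, 5′ to 3′ on the gene's strand, with matches to 3 motifs in capitals. The motifs were the M-CAT element bound by TEAD factors (CATTCC), the E-box bound by myogenic factors (CANNTG) and the TATA box (TATAAA). Ankrd2 lies at chr1:250796169-250796418 on the plus strand and Ankrd23 at chr9:46274511-46274760 on the minus strand.
Ankrd2: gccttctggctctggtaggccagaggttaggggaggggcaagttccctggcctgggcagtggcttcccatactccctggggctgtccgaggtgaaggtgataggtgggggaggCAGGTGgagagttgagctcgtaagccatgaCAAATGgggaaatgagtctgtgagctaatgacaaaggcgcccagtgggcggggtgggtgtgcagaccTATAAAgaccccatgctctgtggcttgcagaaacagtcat
Ankrd23: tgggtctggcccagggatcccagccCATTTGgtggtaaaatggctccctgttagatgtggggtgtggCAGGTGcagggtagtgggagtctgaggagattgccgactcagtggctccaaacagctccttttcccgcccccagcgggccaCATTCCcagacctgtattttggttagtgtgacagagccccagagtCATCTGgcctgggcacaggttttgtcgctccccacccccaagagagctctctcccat

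Ankrd2 held E-boxes at 137 bases (CAGGTG) and 107 bases (CAAATG) before the start and a TATA box at 40 bases. Ankrd23 held the M-CAT letters at 102 bases and E-boxes at 225 bases (CATTTG), 183 bases (CAGGTG) and 57 bases (CATCTG). Searched on both strands of the same length in 33469 promoters, the M-CAT letters were found in 12.1%, the E-box in 65.5% and the TATA box in 12.9%. A CArG box, found in 1.50%, and a MEF2 site, found in 0.523%, were not matched in either window. A match is a run of letters and does not show binding.

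The lists that follow were chosen with earlier results known, and most genes named from them are those with the largest changes, so their adjusted p-values, over all tested genes, describe picked genes and support nothing about the lists. Among other proteins that bind titin, 17 of 22 listed genes were in the table and tested. At 10 against 0 days 4 were higher and 11 lower (all tested genes: 33.3% higher, 29.4% lower), with a median log2 fold change of -0.56, against 0.061 for all tested genes. At 30 against 10 days 11 were higher and 4 lower (23.0% and 24.3%), and at 60 against 10 days 11 and 5 (29.1% and 31.9%). With library totals the first count became 7 and 6 and the median 0.096. Capn3, the protease that shares titin's spring region with the ankyrin repeat proteins, fell from 429 ± 18.5 CPM (SD, n = 4) at 0 days to 141 ± 25.0 at 10 days, then stood at 299 ± 9.66 and 345 ± 38.9. Its log2 change of 1.09 ± 0.11 (SE) from 10 to 30 days was called (adjusted p = 1.16e-06 by edgeR). Mypn went from 572 ± 43.2 to 387 ± 26.3 CPM at 10 days, and its log2 fold change of -0.56 against 0 days turned to 0.096 with library totals. Trim55, a ubiquitin ligase of the sarcomere, rose by 1.75 ± 0.13 at 10 against 0 days (adjusted p = 7.48e-09) and changed by -1.66 ± 0.13 at 60 against 10 days (adjusted p = 3.98e-08).

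Of the Z-disc genes related to Csrp3's site of action, 17 were tested. At 10 against 0 days 2 were higher and 12 lower (all tested genes: 33.3% and 29.4%), and at 30 against 10 days 9 were higher and 1 lower (23.0% and 24.3%). With library totals these counts were 5 and 8, and 8 and 4. Ldb3, which binds alpha-actinin, stood at 4267 ± 203 CPM (SD, n = 4) at 0 days and 588 ± 291 at 10 days, and rose by a log2 fold change of 1.96 ± 0.26 (SE) from 10 to 30 days (adjusted p = 1.98e-05 by edgeR). Actn2, alpha-actinin 2, rose by 1.16 ± 0.19 in the same comparison (adjusted p = 0.000131). Of the relatives of Csrp3, Csrp1 fell by 0.91 ± 0.19 at 10 against 0 days (adjusted p = 0.000746, lost with library totals at 0.273) and rose by 0.74 ± 0.19 from 10 to 30 days (adjusted p = 0.00517). Csrp2 was low, at 5.48 ± 0.506 CPM at 0 days and 8.63 ± 3.05 at 10 days, and its difference of -0.39 ± 0.21 from 10 to 30 days was not called (adjusted p = 0.136). Telethonin and titin themselves were not analysed here.

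In the YAP and TEAD list (18 tested, Ankrd1 not counted) 4 genes were higher and 7 lower at 10 against 0 days (all tested genes: 33.3% and 29.4%). At 30 against 10 days 4 were higher and 4 lower, near the shares of all genes (23.0% and 24.3%). The median of the list was 0.030 and 0.024 in these comparisons. With library totals the first count became 13 higher and 1 lower. Yap1 stood at 39.0 ± 4.68 CPM (SD, n = 4) in unoperated muscle and at 40.6 ± 4.48, 22.8 ± 3.00 and 22.0 ± 12.9 CPM at the operated times in order. Its paralogue Wwtr1 (TAZ) rose from 22.95 ± 2.96 to 54.2 ± 3.01 CPM at 10 days (log2 fold change 1.24 ± 0.12 SE, adjusted p = 1.93e-07 by edgeR) and changed by -1.19 ± 0.12 from 10 to 30 days (adjusted p = 1.43e-06). Tead1 fell by 1.08 ± 0.28 at 10 against 0 days (adjusted p = 0.00371), a call lost with library totals (-0.43, adjusted p = 0.171). Ctgf and Cyr61, which are also widely used YAP readouts, were not called at 10 against 0 days. Their log2 fold changes were 0.09 ± 0.21 (adjusted p = 0.717) and 0.45 ± 0.30 (adjusted p = 0.202). With library totals both were called higher, at 0.76 and 1.10. Ctgf rose by 0.73 ± 0.21 at 30 days (adjusted p = 0.00734) and by 1.36 ± 0.22 at 60 days (adjusted p = 7.13e-05) against 0 days.

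The list of load and stretch response genes (17 tested) had 10 higher and 3 lower at 10 against 0 days (all tested genes: 33.3% and 29.4%), with a median of 1.02. With library totals 13 were higher, with a median of 1.68. At 30 against 10 days 1 was higher and 1 lower (23.0% and 24.3%), or 1 and 4 with library totals. Fst (follistatin), an inhibitor of myostatin, rose from 0.910 ± 0.395 CPM (SD, n = 4) to 40.7 ± 9.81 at 10 days (log2 fold change 5.46 ± 0.35 SE, adjusted p = 4.47e-09 by edgeR). From 10 to 30 days it differed by -0.16 ± 0.25 (adjusted p = 0.625). Mustn1, a nuclear protein of growing muscle, rose by 1.73 ± 0.29 at 60 against 0 days (adjusted p = 0.000119). Myc rose by 3.13 ± 0.20 at 10 against 0 days (adjusted p = 2.39e-09). The early response genes Fos and Atf3 went the other way at 10 against 0 days, by -2.25 ± 0.72 (adjusted p = 0.0138) and -1.70 ± 0.54 (adjusted p = 0.0125). Both calls were lost with library totals (adjusted p = 0.0548 and 0.0884).

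Fibre type genes are described beside Ankrd2, which is known to be richer in slow fibres. Of 9 slow contractile genes, 8 were lower at 10 against 0 days (29.4% of all tested genes were) and 8 were higher at 30 against 10 days (23.0%). Of 12 fast genes, 12 were lower at 10 against 0 days and 10 were higher at 30 against 10 days. Most genes of both lists changed in the directions in which Ankrd2 moved. Myl3, a slow myosin light chain, stood at 1650 ± 164 CPM (SD, n = 4) in unoperated muscle, at 109 ± 63.7 CPM after 10 days and at 1233 ± 269 CPM after 30. Its log2 change from 10 to 30 days was 3.50 ± 0.36 (SE, adjusted p = 2.41e-06). Myh7, the slow myosin heavy chain, rose by 0.89 ± 0.29 (adjusted p = 0.0210), and Myh4, the fast 2B chain, differed by -0.06 ± 0.21 (adjusted p = 0.844). Whether fibre type composition accounts for the Ankrd2 values was not tested.

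All 8 denervation genes (Chrna1, Chrnd, Chrng, Gadd45a, Myh3, Myog, Ncam1 and Runx1) were higher at 10 and at 30 against 0 days, with medians of 5.03 and 4.18, and 7 of 8 at 60 days, where 33.3%, 33.7% and 29.9% of all tested genes were higher. From 30 to 60 days 7 of the 8 were lower, with a median of -2.41, where 12.4% of all genes were lower and 10.3% higher. Chrna1, the acetylcholine receptor alpha subunit, stood at 18.4 ± 3.07 CPM (SD, n = 4) in unoperated muscle and at 1181 ± 204, 818 ± 331 and 56.7 ± 26.8 CPM at the operated times in order. It changed by -3.85 ± 0.35 (SE) from 30 to 60 days (adjusted p = 4.85e-06 by edgeR). Ankrd1, with the difference of -0.07 ± 0.48 given above, was not called in that comparison. Without replicate 1 at 60 days it was called lower (-1.05 ± 0.33, adjusted p = 0.0292 by edgeR). That library was the highest of its group for Ankrd1, so leaving it out lowers the 60-day mean by construction. The difference between the genes' changes was not tested.

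**Figure D5:**
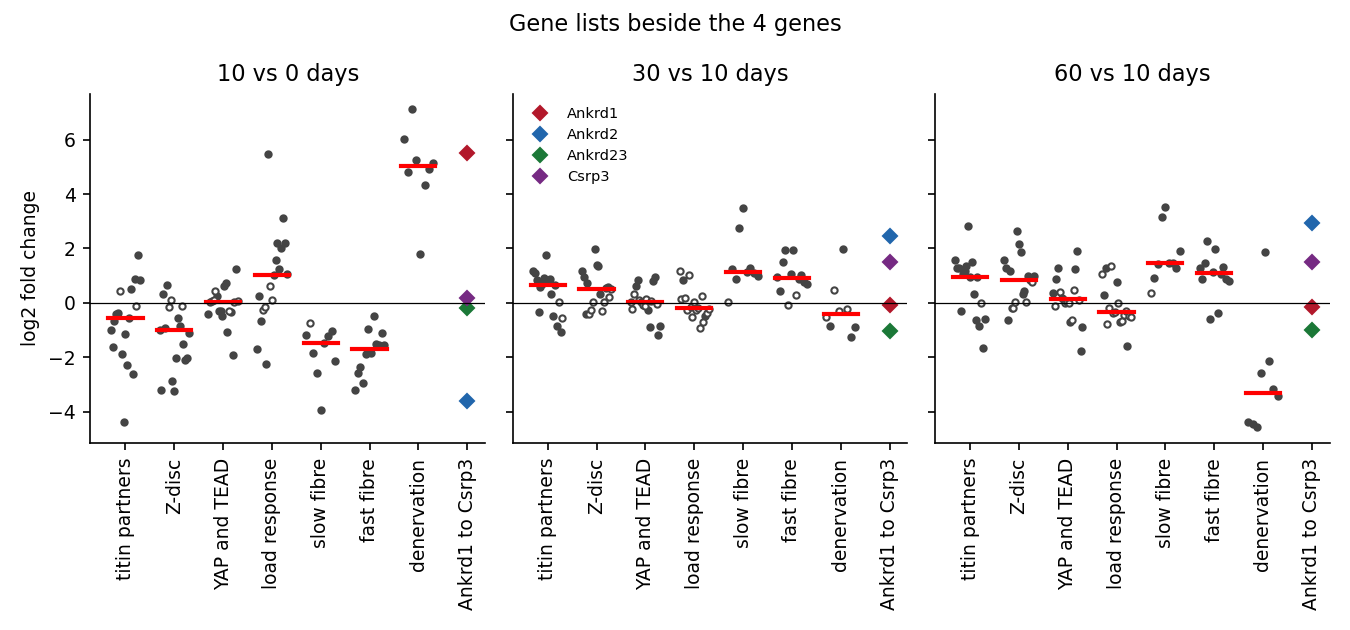
Log2 fold changes of the genes of the 7 lists at 10 against 0, 30 against 10 and 60 against 10 days. Each point is a gene, filled where its adjusted p was under 0.05; red marks are list medians and diamonds are Ankrd1, Ankrd2, Ankrd23 and Csrp3. The denervation list has its median at 5.03 at 10 against 0 days and at -0.41 at 30 against 10 days.

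Markers of other cell types moved with time as well. At 10 against 0 days 5 of 5 endothelial and 4 of 5 smooth muscle markers were lower (29.4% of all tested genes were), and their sums went from 224 to 266 down to 119 to 184 CPM and from 253 to 326 down to 112 to 169 CPM. With library totals the lower counts were 1 and 2. Satellite cell markers went from 83.2 to 102 CPM up to 175 to 261 CPM, with 2 of 4 higher and 1 lower. Myod1 was the largest part of this sum, with means of 59.8 ± 11.3 CPM (SD, n = 4) and 200 ± 37.7. Cdh15 fell from 32.2 ± 5.08 to 15.4 ± 2.74 CPM, and the median of Pax7 was 1.15 and then 1.00 CPM. Fibroblast markers rose in 3 of 5, macrophage markers in 4 of 5 and tendon markers in 4 of 4, where 33.3% of all tested genes were higher. With library totals these were 5 of 5, 5 of 5 and 4 of 4. The part of these cells in the levels of Ankrd1 and its relatives was not tested.

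The genes most like each of the 4 were sought among 8223 tested genes with a mean of at least 5 CPM, by Pearson correlation of log2 CPM over the 16 libraries, as a description. For Ankrd1 they were Cdkn1a (r = 0.987), a cell cycle inhibitor, Myl12a (0.982), a regulatory light chain of non-muscle myosin, Fam110a (0.977), Hsf2 (0.977), a heat shock factor, and Klk1c7 (0.976). Cdkn1a stood at 46.9 ± 12.0 CPM (SD, n = 4) in unoperated muscle and at 1695 ± 222, 1698 ± 202 and 1238 ± 643 CPM at the operated times in order. For Ankrd2 they were Myoz2 (0.971), a calcineurin-binding protein of the slow fibre Z-disc, Ache (0.968), acetylcholinesterase, and Adamtsl5 (0.968). Ache went from 105 ± 7.72 to 9.12 ± 4.26 CPM at 10 days and stood at 41.3 ± 12.0 and 62.9 ± 5.53 later. For Ankrd23 they were Qk (0.981), an RNA-binding protein of splicing, Slc30a9 (0.978) and Fxr1 (0.974), an RNA-binding protein of muscle. For Csrp3 the values were lower, with Rnpc3 (0.941), the pseudogene Hmox2-ps1 (0.936) and Cnr2 (0.932). These ranks depend on the scaling and the measure. With library totals Fxr1 ranked 214th for Ankrd23, Adamtsl5 53rd for Ankrd2 and Rnpc3 51st for Csrp3, while Myl12a, Cdkn1a and Hsf2 held ranks 1 to 3 for Ankrd1. By Spearman correlation Ache and Adamtsl5 both ranked 63rd for Ankrd2, and Klk1c7 had a tied rank of 39.5 for Ankrd1. Over the 16 libraries r also holds the differences between groups. With group means removed, r was 0.77 to 0.92 for the genes named for Ankrd1 and 0.65 to 0.88 for those of Ankrd2. It was 0.94 to 0.97 for those of Ankrd23 and 0.48 to 0.53 for those of Csrp3.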

How the data were processed

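RNA was extracted from supraspinatus with a miRNeasy kit and made into TruSeq mRNA libraries, per the labels. The authors deposited 1 table of expected counts, raw fragments per gene and library with no scaling for depth or length, per the file header and values; 233 of 17147 genes have fractional values. The submitters' processing notes list bcl2fastq 1.8.4, FastQC, TopHat2 2.0.9, Bowtie2 2.1.0.0, Cufflinks, Cuffdiff 2.1.1 and the build rn5, with no role or order. Strandedness, annotation and filters are not given in the sources used here.

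Values were rounded to whole counts. Genes were filtered with filterByExpr by group (11658 kept, 5489 untested), scaled with TMM factors and fitted in 1 robust edgeR quasi-likelihood model of the 16 libraries with no covariate. P-values were adjusted by Benjamini-Hochberg over all tested genes, with calls at an adjusted p under 0.05. An SE is the log2 fold change divided by the square root of F. Wilson intervals (95%) cover counting error only. Within-library ratios were compared by exact permutation tests. Replicates are numbered in accession order and only name libraries. Only the edgeR fit was also run on simulated counts, drawn from its own estimates of spread. They held no outlying library, so that run supports none of the results here.

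The 4 genes and the lists of other genes (165 entries, 150 in the table) were chosen with earlier results of these data known, the lists from textbook knowledge; 1 further list gene is not reported here. Besides the 4 genes and 15 partners, up to 2 rises and 2 falls per list and comparison could be named, and the 5 genes most like Ankrd1 and the 3 most like each other gene. Alternatives were RLE and upper-quartile factors, library totals, DESeq2, limma-voom, no filter, a filter at a mean of 1 CPM, non-robust estimation, models of only the compared groups, a threshold of 0.01, a replicate block, the title letter (L or R, meaning not stated) and leaving out each library. Correlations without the 60-day group were added after seeing the data. Tests ran in edgeR 4.0.16, limma 3.58.1 and DESeq2 1.42.0 under R 4.3.3. RefSeq promoters are of the assembly GRCr8, which differs from the build of the counts and was used for sequence only.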

Additional observations from a re-analysis of the deposited data

Results flagged for a closer look

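In 2 of 16 sets of 4 libraries (4 genes in 4 groups), 1 library stood far from the other 3 by Dixon's criterion. They were Ankrd1 at 60 days, where replicate 1 read 3624 CPM with a gap of 0.876 of the group's range, and Ankrd23 at 60 days, where the same library read 4188 CPM with a gap of 0.944. Chance flags about 1 in 20 such sets if the values are normally distributed, and these 2 come from the same library. The criterion was applied to CPM and not to log2 CPM. On that scale Ankrd1 read 11.82, 9.55, 9.09 and 9.86 at 60 days, so its flag may depend on the scale.

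The change from 0 days differed between times for 3 genes, by the edgeR test of the difference itself. The log2 differences were 2.47 for Ankrd2 at 30 against 10 days and 2.94 at 60 against 10 days. They were -1.04 and -0.98 for Ankrd23, and 1.49 and 1.49 for Csrp3, in the same comparisons. The 60-day comparisons share the 10-day libraries with the others, so they are not independent.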

How the results depend on the processing

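Ankrd2, Ankrd23 and Csrp3 were called at 30 against 10 and at 60 against 10 days in all 27 alternative fits, and none of the 3 at 60 against 30 days in any of them. Differences near 0 changed sign with the setting and were never called: Ankrd1 at 30 against 10 days was 0.0089 with upper-quartile factors and 0.18 with the title letter. Ankrd23 at 60 against 30 days was -0.050 with library totals, -0.072 with limma-voom and -0.073 with the title letter. Csrp3 at 60 against 30 days was 0.022 with RLE factors, 0.017 with upper-quartile factors, 0.022 with DESeq2, 0.035 with limma-voom, 0.013 with a mean of at least 1 CPM and 0.050 with the title letter.

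Library totals moved the log2 fold changes against 0 days to 6.17 for Ankrd1 at 10 days, -2.95 and -0.64 for Ankrd2 and 0.48 and -0.71 for Ankrd23 at 10 and 30 days, and 0.84, 2.18 and 2.08 for Csrp3 at 10, 30 and 60 days. This scaling shifts all genes, as the medians in the report show. The 2636 genes called at 60 against 30 days became 1530 with only the compared groups and 1244 at an adjusted p under 0.01. Upper-quartile factors moved the share of called genes that were higher at 60 against 0 days from 50.7% to 63.6%.

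Leaving out each library in turn gave Ankrd1 log2 fold changes of -0.36 to 0.11 at 30 against 10 days, -1.05 to 0.23 at 60 against 30 days, -1.11 to 0.14 at 60 against 10 days and 4.40 to 5.66 at 60 against 0 days. The same gave -0.44 to 0.21 for Ankrd23 and -0.16 to 0.082 for Csrp3 at 60 against 30 days. The lowest Ankrd1 values at 60 days, and its only calls, came without replicate 1 of that group.

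The replicate block used the number that ends each column name. Over all tested genes, libraries with the same number did not deviate together on average. Over 24 pairs the mean correlation was 0.0013 (range -0.24 to 0.22), with 4 over 0.1. Csrp3 did follow the number in part. Its replicate 1 deviated from the group mean of log2 CPM by 0.53, 0.26, 0.26 and 0.22 in order of time. Its replicate 3 deviated by -0.51, -0.36, -0.59 and 0.00054. With the block, the SE of Csrp3 at 30 against 10 days was 0.13 in place of 0.21. What the number stands for is not stated. With the replicate block, Ankrd23 at 60 against 30 days was -0.026 and Csrp3 0.037, and no call of the 4 genes among operated times changed. The 60-day libraries were the shallowest. In the main fit, 4 libraries a group limit the precision of Ankrd1 most, since its pooled spread, which replicate 1 at 60 days raised, was the largest.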
